A study of Mus musculus with 6 samples.

Results

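The 10 genes described here encode chemokines, leukocyte adhesion molecules and a macrophage growth factor, and were followed in AML12 cells, an immortalised mouse hepatocyte line. They are Icam1, Vcam1, Cxcl1, Cxcl2, Cxcl5, Cxcl16, Ccl2, Ccl7, Ccl20 and Csf1, taken by name from the 49585 genes of the count table, and all 10 were found there. The cells had been transfected with a construct for over-expression that carried the open reading frame of Zac1, a zinc-finger transcription factor, or that of EGFP, a fluorescent control protein, and polyA RNA was sequenced after 24 h. Each group holds 3 libraries, numbered 1 to 3 for EGFP and 4 to 6 for Zac1, and no untransfected cells are among them. The labels do not say whether the libraries of a group are separate cultures, so each p-value below speaks only of the spread between these libraries.

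Chemokines are small secreted proteins that guide white blood cells along a gradient by way of G-protein-coupled receptors. ICAM1 and VCAM1 are membrane proteins that integrins of those cells grip before they leave the blood, and CSF1 sustains monocytes and macrophages. Hepatocytes can make many of these proteins in response to inflammatory signals, and NF-kappaB, a family of transcription factors, is a well-known activator of Icam1, Vcam1 and most of the chemokine genes named here.

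Of the 10 genes, 3 were higher in the Zac1 libraries by edgeR's quasi-likelihood test, run over the 12130 genes whose mean count reached 10 (Benjamini-Hochberg adjusted p below 0.05), namely Icam1, Cxcl2 and Cxcl16. None was lower, and at an unadjusted p below 0.05 the counts were 5 higher and 0 lower. DESeq2 and limma called the same 3 genes higher and voom with quality weights 5, and each of these tools called 0 lower. Over all genes tested, 3.12% were called higher and 0.668% lower by edgeR at the adjusted threshold. Of the same 12130 genes DESeq2 called 334 higher and 94 lower, limma 374 and 73, and voom 797 and 500. Those totals also belong beside the counts by tool of the gene lists below. At an unadjusted edgeR p below 0.05 the count over all 12130 genes, both directions together, was at least 1843 and below 2356. That range also belongs beside the unadjusted counts of the gene lists below. In 5 genes every Zac1 library lay above every EGFP library, and in 0 every Zac1 library lay below; over all genes those shares were 11.9% and 8.75%. The median log2 fold change of the 10 was 0.22, against -0.002 for all genes tested, and the 10 values ran from -0.27 to 1.10. All 10 passed the count minimum, with mean counts between 65.7 and 1619.

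**Figure D1:**
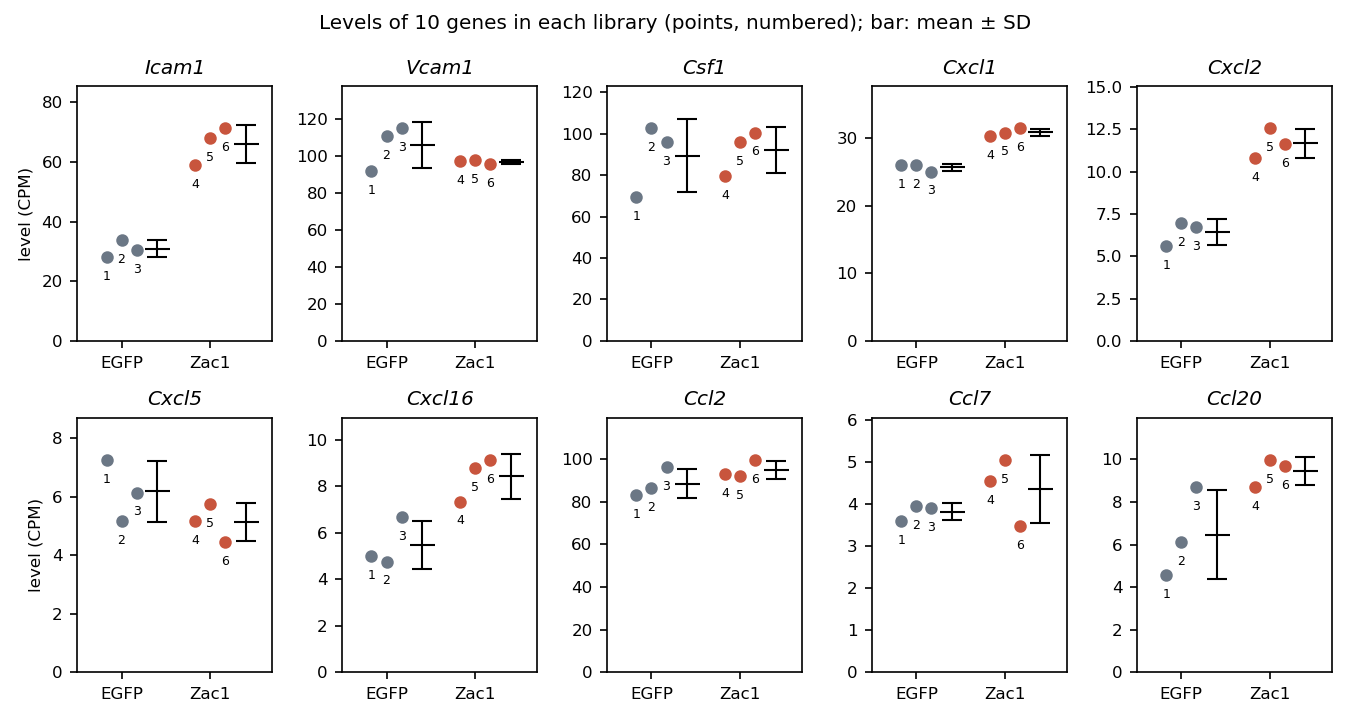
Level of each gene as CPM (counts scaled to a common library size; linear axes from 0) in the 3 EGFP libraries (grey, numbered 1 to 3) and the 3 Zac1 libraries (red, numbered 4 to 6); black marks give mean ± SD. The groups are apart for Icam1, Cxcl1, Cxcl2, Cxcl16 and, barely, Ccl20, and mixed for the other 5 genes.

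The libraries held 14801240 to 18302538 counts, and the 10 genes together took 0.0322% to 0.0439% of them. Plagl1, the gene of Zac1, was at 2.60 to 5.30 CPM in EGFP and at 6598 to 8064 CPM in Zac1, as the labels say; reads of the construct and of the cell's own gene cannot be told apart there. EGFP 1 and Zac1 4 stood apart on the second principal component (18.7 and 11.6, against -10.6 to -3.51 for the other 4 libraries). EGFP 1 was also the lowest EGFP library for 7 of the 10 genes, and Zac1 4 the lowest Zac1 library for 6 of 10. The number of changed genes over the whole table, 459, was 236 without EGFP 3, 963 without Zac1 4, 206 without Zac1 5 and 221 without Zac1 6. Hepatocyte markers were mixed: Krt8, Krt18 and Hnf4a, an epithelial keratin pair and a liver transcription factor, reached 1748, 1580 and 201 CPM in EGFP, while albumin (Alb) was at 34.6 CPM and Apoa2 had no read. Of the 10 listed hepatocyte markers 7 could be tested, 0 rose and 1 fell: Ttr, the gene of the carrier protein transthyretin, went from 67.3 ± 2.71 to 42.4 ± 4.46 CPM (SD, n = 3; log2 fold change -0.67, edgeR adjusted p = 0.000211). The 10 summed to 3374 to 3936 CPM in EGFP and 3538 to 4240 CPM in Zac1, most of it from Krt8 and Krt18. Of 10 leukocyte markers, Cd3e, Itgam and Tyrobp had no read in any library, and the 10 summed to 2.16 to 2.48 CPM in EGFP and 1.88 to 2.66 CPM in Zac1. The 8 endothelial markers summed to 0.537 to 0.877 and 0.747 to 1.25 CPM, with Emcn, Cldn5 and Lyve1 at 0. The 8 stellate and fibroblast markers summed to 0 to 0.0675 and 0.436 to 0.880 CPM, with Dcn, Lrat and Lum at 0. The 6 bile duct markers summed to 678 to 717 and 654 to 685 CPM. None of them was at 0 in every library, but Epcam had only 1 read in all EGFP and 3 in all Zac1 libraries. The part of these markers in the results below was not tested.

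The 4 stretches of promoter below are shown first, because they set genes that rose beside genes that were not called. Each runs from 160 bases before to 20 bases after the RefSeq start site on the strand of the gene (GRCm38.p6), read 5′ to 3′. Capitals mark matches to the kappaB consensus, the binding pattern of NF-kappaB, in the first 3 stretches and the letters TATAAA in that of Icam1. The stretches are chr5:90903739-90903918 (plus strand) for Cxcl2, chr5:90891085-90891264 (plus) for Cxcl1, chr3:107760450-107760629 (minus) for Csf1 and chr9:21015780-21015959 (plus) for Icam1.
Cxcl2: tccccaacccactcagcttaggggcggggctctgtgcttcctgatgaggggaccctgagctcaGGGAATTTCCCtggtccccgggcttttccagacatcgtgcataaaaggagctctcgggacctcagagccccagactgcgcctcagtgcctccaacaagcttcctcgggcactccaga
Cxcl1: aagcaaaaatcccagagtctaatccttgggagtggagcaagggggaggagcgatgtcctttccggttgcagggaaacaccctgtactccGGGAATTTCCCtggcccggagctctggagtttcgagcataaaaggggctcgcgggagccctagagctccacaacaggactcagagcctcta
Csf1: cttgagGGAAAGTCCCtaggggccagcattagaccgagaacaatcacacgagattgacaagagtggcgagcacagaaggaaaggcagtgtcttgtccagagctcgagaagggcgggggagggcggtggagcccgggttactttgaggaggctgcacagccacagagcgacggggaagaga
Icam1: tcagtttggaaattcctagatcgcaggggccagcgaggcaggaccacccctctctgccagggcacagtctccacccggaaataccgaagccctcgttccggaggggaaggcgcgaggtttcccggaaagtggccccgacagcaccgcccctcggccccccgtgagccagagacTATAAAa

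The RefSeq table held windows of 300 bases, from 250 before to 50 after the start, for 5 of the 10 genes (Icam1, Cxcl1, Cxcl2, Ccl20 and Csf1). On both strands the kappaB consensus was found in 4 of the 5, all but Icam1, and in 8.46% of 32851 windows of that length. Cxcl1 and Cxcl2 carry the same 11 letters, GGGAATTTCCC, which match once on each strand, with the matches overlapping; 1.22% of all windows hold at least 2 matches. They begin 71 bases before the start in Cxcl1 and 97 before it in Cxcl2. With the next 3 letters they make GGGAATTTCCCTGG, at 14 bases the longest run that any pair among the 5 windows shares before the start; the other pairs share 8 to 11. Over the whole window, searched first, the longest run was 20 bases, also between Cxcl1 and Cxcl2, and began 31 and 11 bases after their starts. The match in Ccl20 begins 80 bases before the start and that in Csf1 154 before it. TATAAA, searched on the gene's strand, was found only in Icam1 among the 5, from position 14 to position 19 after the RefSeq start, and in 8.32% of all windows; the GENCODE M21 gene begins further downstream, at 21015985. The core TGACG of the cAMP response element was found in Cxcl1 alone among the 5, at 2 places on the minus strand, and in 20.8% of all windows. The AP-1 pattern TGANTCA (7.81% of all windows) and the palindrome GGGGCCCC described for Zac1 (1.08%) were found on neither strand in any of the 5. These are matches of letters, which say nothing about binding, and the printed stretches were picked after the matches were seen. Among the 4 genes with a kappaB match, Cxcl2 rose, Cxcl1 and Ccl20 were above 0 without passing the test, and Csf1 was near 0. For Icam1 the absence of a match says only that the consensus letters are not in this window, since variant sites were not searched. Its printed stretch does hold tggaaattcc, which differs from the consensus only in the first letter, t in place of g. How many windows hold such a near match was not counted. The last 15 bases of the window were found in the first 400 bases of a GENCODE transcript for the other 4 genes and not for Icam1. The Icam1 window ends at 21015989, just past the GENCODE gene start, so its last 15 bases lie across that start.

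Icam1 (ENSMUSG00000037405; GRCm38 chromosome 9, 21015985 to 21028817, plus strand), the immunoglobulin-type ligand of the integrins LFA-1 and Mac-1, was read 424, 506 and 451 times in EGFP and 945, 1161 and 1310 times in Zac1. In CPM, scaled by TMM factors, these are 28.2, 33.9 and 30.4 against 58.8, 68.1 and 71.2. The lowest Zac1 library lay far above the highest EGFP library. The fold was 2.14 (95% interval 1.88 to 2.44; log2 fold change 1.10, SE 0.09, edgeR adjusted p = 7.48e-06), the sixth smallest p of all genes tested. In bulk RNA it cannot be told apart whether more cells carried the transcript or each cell carried more of it. The call held with every library left out in turn (adjusted p at most 0.000649). An antisense gene overlaps Icam1 but has only 5 reads in all 6 libraries.

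Vcam1 (ENSMUSG00000027962; chromosome 3, 116109949 to 116129688, minus strand), the ligand of the integrin VLA-4, did not follow Icam1. It stood at 91.6, 111 and 115 CPM in EGFP and at 97.4, 97.5 and 95.5 CPM in Zac1. The 3 Zac1 libraries were nearly equal and lay between EGFP 1 and the other two EGFP libraries. The log2 fold change was -0.13 (95% interval -0.28 to 0.03, adjusted p = 0.434), an interval that holds falls of up to 0.28 and no rise above 0.03. Without EGFP 1 and Zac1 4 together it was -0.22 and passed (edgeR adjusted p = 0.00376), in a fit of 4 libraries whose variance was set almost entirely by the trend over genes (1563 prior degrees of freedom), so that p is no firmer than the one above.

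The difference between the 2 adhesion genes also shows in their read counts within each library, where no scaling factor enters. There were 0.308, 0.306 and 0.265 reads of Icam1 per read of Vcam1 in EGFP and 0.603, 0.699 and 0.745 in Zac1, a mean of 0.293 ± 0.0242 against 0.682 ± 0.0722 (SD, n = 3). The groups did not overlap (two-sided exact permutation p = 0.1, below which no split of 3 and 3 libraries can go; 0.15 after Benjamini-Hochberg adjustment over the 6 ratios computed, pairs chosen after their values were seen).

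**Figure D2:**
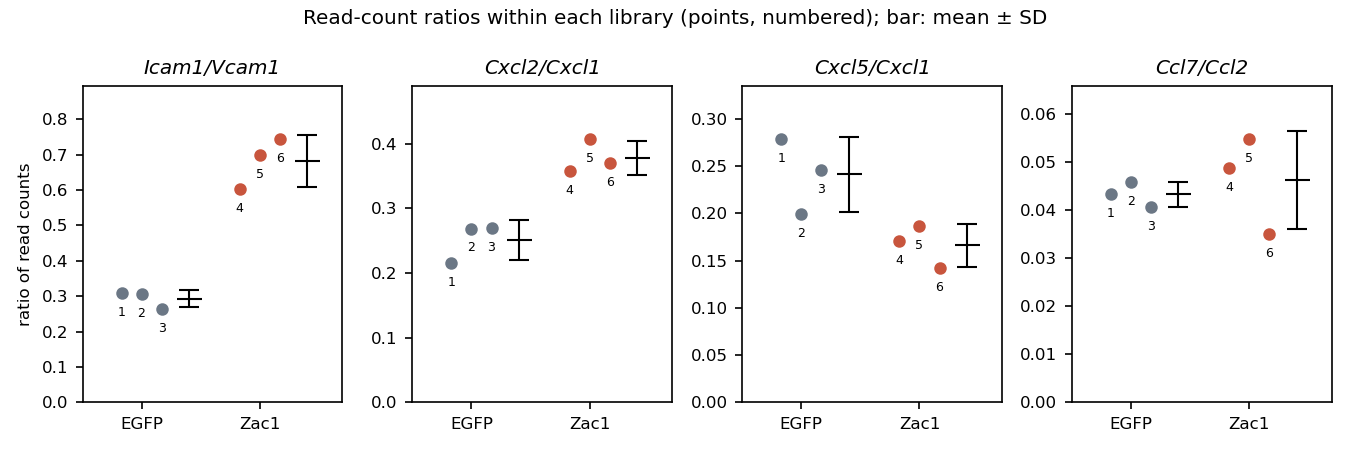
Reads of one gene per read of another in each library (linear axes from 0; grey, EGFP; red, Zac1; black, mean ± SD). Icam1/Vcam1 and Cxcl2/Cxcl1 were higher and Cxcl5/Cxcl1 lower in every Zac1 library, while Ccl7/Ccl2 overlapped.

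Cxcl1, Cxcl2 and Cxcl5 belong to the neutrophil-attracting branch of the CXC family, which signals through CXCR2, and they lie in one cluster on chromosome 5. Cxcl2 (ENSMUSG00000058427; 90903871 to 90905938, plus strand) stood at 5.59, 6.98 and 6.75 CPM in EGFP and at 10.8, 12.6 and 11.6 CPM in Zac1. The groups were well apart, and the fold was 1.81 (log2 fold change 0.86, 95% interval 0.58 to 1.13, SE 0.13, edgeR adjusted p = 0.00129). That call too held with each library left out (adjusted p at most 0.0121).

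Cxcl1 (ENSMUSG00000029380; 90891241 to 90893115, plus strand) was the more strongly read of the pair. It stood at 26.0, 26.0 and 25.0 CPM in EGFP and at 30.3, 30.8 and 31.4 CPM in Zac1. The groups did not overlap, but the difference was small, a log2 fold change of 0.26 (95% interval 0.11 to 0.42, SE 0.07), and the edgeR adjusted p of 0.0607 did not pass. It passed without Zac1 4 (0.0444), with upper-quartile scaling (0.049), with voom quality weights (0.0142) and with GC offsets (0.0251). It also passed without EGFP 1 and Zac1 4 together (0.0167), where the trend over genes set almost all of the variance. In the other 11 of 16 alternatives it did not pass, among them DESeq2 (adjusted p = 0.14) and limma (0.0698). Leaving out any single library but Zac1 4 gave an edgeR adjusted p of 0.0883 to 0.245.

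Cxcl5 (ENSMUSG00000029371; 90759360 to 90761624, plus strand) had the lowest fold change of the 10. Its levels were 7.25, 5.17 and 6.14 CPM in EGFP and 5.16, 5.75 and 4.46 CPM in Zac1, so the groups overlapped. The log2 fold change was -0.27 (95% interval -0.63 to 0.08, adjusted p = 0.455). Per read of Cxcl1, reads of Cxcl2 went from 0.251 ± 0.0314 to 0.378 ± 0.0261 and reads of Cxcl5 from 0.241 ± 0.0401 to 0.166 ± 0.0227 (SD, n = 3). Neither ratio overlapped between the groups (exact permutation p = 0.1 and adjusted p = 0.15 for each). Of the other ratios computed, Ccl20 per Ccl2 was also without overlap (1.38 times higher in Zac1, exact permutation p = 0.1), and Cxcl16 per Cxcl1 overlapped (1.27 times, exact permutation p = 0.2).

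The other chemokine genes of that cluster were weakly read. Cxcl3, also a ligand of CXCR2, was read 13, 22 and 13 times in EGFP and 39, 29 and 37 times in Zac1. Its groups did not overlap, yet it did not pass (log2 fold change 0.92, 95% interval 0.30 to 1.55, edgeR adjusted p = 0.109). Ppbp, a platelet chemokine gene, had 7 reads in all EGFP and 15 in all Zac1 libraries, Pf4 had 0 and 1, and Cxcl15 had 1 and 0. Mthfd2l, an enzyme gene of folate metabolism next to Cxcl2, was at 21.3 ± 1.21 and 19.7 ± 2.38 CPM (SD, n = 3; log2 fold change -0.12, adjusted p = 0.609). Where these related genes share sequence, how the authors' counting divided reads between them is uncertain.

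**Figure D3:**
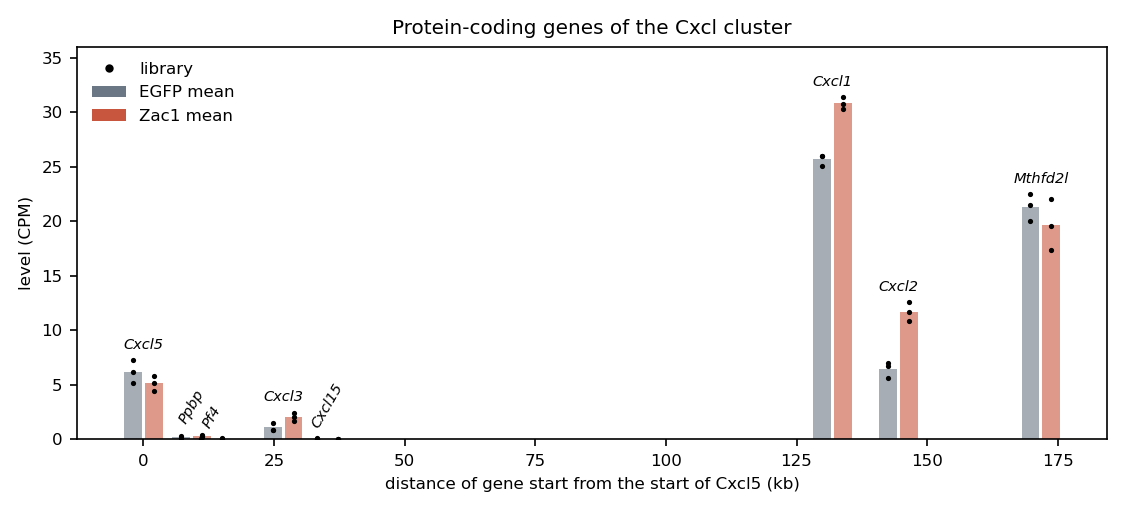
Mean level (bars, CPM, axis from 0) and single libraries (dots) of the protein-coding genes within 100 kb of the Cxcl members on chromosome 5, placed by the distance of each gene's start from that of Cxcl5. Cxcl1 and Cxcl2, with Zac1 bars above EGFP bars, lie apart from Cxcl5, and Mthfd2l next to them shows overlapping libraries. Cxcl3, nearer to Cxcl5 than to Cxcl1, also had every Zac1 library above every EGFP library, at low levels.

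Cxcl16 (ENSMUSG00000018920; chromosome 11, 70453983 to 70459984, minus strand) encodes a chemokine made as a membrane protein, which binds CXCR6 on T cells and NKT cells and can be shed. It stood at 4.99, 4.76 and 6.68 CPM in EGFP and at 7.34, 8.80 and 9.13 CPM in Zac1. Zac1 4 lay only slightly above EGFP 3. The fold was 1.54 (95% interval 1.22 to 1.95; log2 fold change 0.62, SE 0.16, edgeR adjusted p = 0.0402). The call rested on single libraries: leaving out EGFP 1 gave an adjusted p of 0.0895, EGFP 2 0.131, Zac1 5 0.172 and Zac1 6 0.189, and a count minimum of 50 gave 0.0637. Zmynd15, on the opposite strand, overlaps it and had 75 reads in all libraries, against 681 for Cxcl16.

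Neither Ccl2 nor Ccl7 passed the test. Ccl2 (ENSMUSG00000035385; chromosome 11, 82035571 to 82037453, plus strand), the main monocyte attractant by way of CCR2, was among the most strongly read members, at 83.0, 86.3 and 96.2 CPM in EGFP and 93.1, 92.0 and 99.5 CPM in Zac1. EGFP 3 lay above 2 of the Zac1 libraries. The log2 fold change was 0.10 (95% interval -0.04 to 0.24, adjusted p = 0.485). Its neighbour Ccl7 (ENSMUSG00000035373; 82045712 to 82047525, plus strand), another monocyte attractant, stood at 3.59, 3.96 and 3.91 CPM in EGFP and at 4.54, 5.05 and 3.48 CPM in Zac1. Zac1 6 was below all EGFP libraries and the other two were above them (log2 fold change 0.18, 95% interval -0.21 to 0.57, adjusted p = 0.68). Reads of Ccl7 per read of Ccl2 were 0.0433 ± 0.00259 (EGFP) against 0.0462 ± 0.0102 (Zac1), SD over 3 libraries each, with an exact permutation p of 0.8. Among the other CC genes within 100 kb, Ccl11 and Ccl12 had no read, and Ccl8 had 14 reads in EGFP and 5 in Zac1.

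Ccl20 (ENSMUSG00000026166; chromosome 1, 83116766 to 83119167, plus strand), the ligand of CCR6 on lymphocytes and dendritic cells, varied most, relative to its mean, within the EGFP group. Its levels were 4.59, 6.11 and 8.71 CPM in EGFP and 8.71, 9.98 and 9.67 CPM in Zac1. EGFP 3 and Zac1 4 were equal to 3 digits, so the groups only just failed to overlap. The log2 fold change was 0.55 (95% interval 0.16 to 0.94) and did not pass (edgeR adjusted p = 0.128). It was 0.82 and passed without EGFP 3 (0.0296), and it also passed with voom quality weights (0.0399) and with no filter on low counts (0.00404). In the fit with no filter, variances were set by the trend over genes alone (infinite prior degrees of freedom). The p of that fit is therefore no firmer than the one from the main fit.

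Csf1 (ENSMUSG00000014599; chromosome 3, 107741048 to 107760469, minus strand) stood at 69.3, 102 and 96.1 CPM in EGFP and at 79.5, 95.8 and 100 CPM in Zac1. EGFP 1 and Zac1 4, which also stood apart over all genes, were the lowest of their groups, and the other 4 libraries lay close together. The log2 fold change was 0.04 (95% interval -0.21 to 0.30, adjusted p = 0.9), and its sign turned without EGFP 1 (-0.11), without Zac1 6 (-0.025) and without EGFP 1 and Zac1 4 (-0.012).

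**Figure D4:**
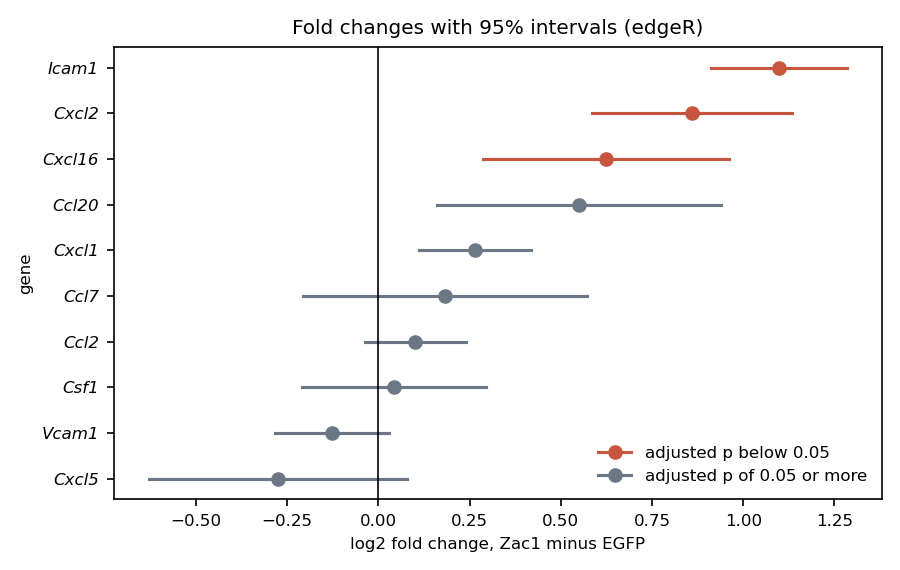
Log2 fold change (Zac1 minus EGFP) of the 10 genes with 95% intervals from the edgeR fit, in order of size; red marks an adjusted p below 0.05. Icam1, Cxcl2 and Cxcl16 passed, the intervals of Ccl20 and Cxcl1 lay above 0 without passing after adjustment, and the other 5 intervals held 0.

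Levels can be compared between genes only per length. Here CPM was divided by the kilobases of all annotated exons joined, which understates a gene whose long exons are seldom used. On that scale Ccl2 led in EGFP with 77.7 ± 6.04 CPM per kb (SD, n = 3), followed by Csf1 (16.9 ± 3.33), Cxcl1 (13.7 ± 0.293), Vcam1 (11.9 ± 1.40) and Icam1 (7.08 ± 0.663). Then came Ccl7 (4.77), Ccl20 (4.55), Cxcl5 (3.32), Cxcl2 (3.11) and Cxcl16 (1.81). The libraries of Csf1 and Cxcl1 overlapped, and so did those of each neighbouring pair from Ccl7 to Cxcl2; the other neighbours were apart. In Zac1, Icam1 stood at 15.1 ± 1.48 CPM per kb, above Vcam1 (10.9 ± 0.127) and overlapping Cxcl1 (16.4 ± 0.296). Cxcl2 (5.64 ± 0.419) overlapped Ccl7 (5.44) there, and Cxcl16 (2.79) overlapped Cxcl5 (2.75).

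Transcript GC content ran from 39.0% (Ccl20) to 55.4% (Icam1) among the 10, with a median of 44.4% against 49.4% for all genes tested. It was 55.4% for Icam1, 45.0% for Cxcl2 and 49.8% for Cxcl16, the genes called. With offsets that remove a GC trend from each library, the same 3 genes passed and Cxcl1 as well.

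**Figure D5:**
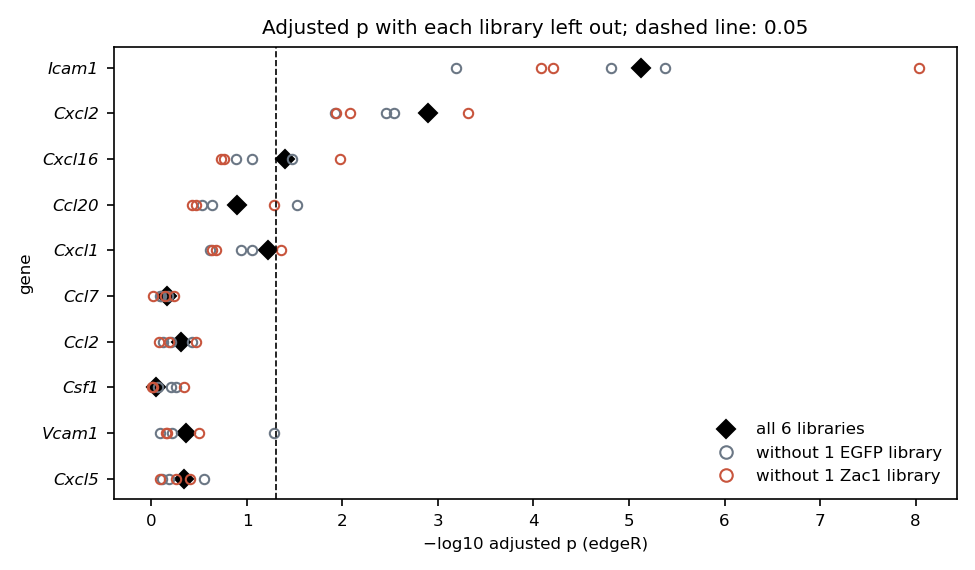
Adjusted p of the edgeR test on a −log10 axis, with all 6 libraries (black diamonds) and with each library left out (open circles; grey, an EGFP library; red, a Zac1 library); the dashed line is 0.05. Icam1 and Cxcl2 stay to the right of it in every case, while Cxcl16, Ccl20 and Cxcl1 cross it.

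The rest of the chemokine and adhesion system was read through lists of genes. Of 30 other chemokine ligands, 12 could be tested, 7 had no read, and 0 passed the edgeR test (1 at an unadjusted p below 0.05, Cxcl3; 0 by DESeq2, limma or voom); their median log2 fold change was -0.04, with 6 above and 6 below 0. After Cxcl3, the smallest p belonged to Cx3cl1, a membrane-bound chemokine gene (log2 fold change 0.82, adjusted p = 0.378). Cxcl10, a T-cell attractant, ran from 57.2 to 97.1 CPM in EGFP and from 64.8 to 77.1 CPM in Zac1, which overlap, and is named here after its values were seen. Chemokine receptors were almost unread: of 23 listed, 3 could be tested and 12 had no read. Of those 3, 0 passed (1 at an unadjusted p below 0.05; 0 by the other 3 tools), and Cx3cr1 came closest (log2 fold change 0.73, adjusted p = 0.263), followed by Ccrl2 (0.50, adjusted p = 0.643).

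Of 19 other leukocyte adhesion molecules, 9 could be tested and 0 passed (at an unadjusted p below 0.05, 2 higher and 2 lower; 0 by DESeq2 and limma, 2 higher and 1 lower by voom). The smallest p belonged to the junction protein gene Esam, at 1.68 ± 0.613 and 3.04 ± 0.336 CPM (log2 fold change 0.86, edgeR adjusted p = 0.0895), and to Nectin2 (0.29, adjusted p = 0.101). Sele, the gene of E-selectin, which slows rolling leukocytes, had no read in any library and is named after its values were seen. Among 9 integrin genes whose products bind ICAM1 or VCAM1, 3 could be tested and 0 passed (2 at an unadjusted p below 0.05; 0 by the other 3 tools), and the beta chains Itgb2 (1.51, adjusted p = 0.0838) and Itgb7 (0.89, adjusted p = 0.28) had the smallest p. The counting also met listed genes that were nearly unread in EGFP, named here after their values were seen. They were sought for few reads in EGFP and more in Zac1. A rise was therefore fixed by the choice, and genes going the other way were not sought, so the ratios only describe these genes. Itgal, the alpha chain of LFA-1, had 2 reads in EGFP and 32 in Zac1 (6, 11 and 15), a ratio of 13.9 (exact 95% interval 3.55 to 120, counting error only). Csf1r, the receptor of CSF1 and one of the leukocyte markers above, had 0 reads in EGFP and 7, 4 and 19 in Zac1. Scaled for depth, that is 8.69 times a floor set at 3 counts over the EGFP group. Cxcr2 had 0 and then 7, 4 and 2, which is 3.76 times the same floor. These ratios to a floor are not confidence bounds, since the error of the Zac1 counts does not enter them. All 3 stayed below the count minimum.

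Of 7 other colony-stimulating factor genes, 2 could be tested and 0 passed (1 at an unadjusted p below 0.05; 0 by DESeq2, 1 by limma and by voom, Csf2). Csf2, which encodes GM-CSF, was at 0.599, 1.07 and 1.42 CPM in EGFP and 1.87, 2.70 and 2.28 CPM in Zac1, without overlap (log2 fold change 1.15, edgeR adjusted p = 0.0523), and it passed without Zac1 4 (0.0204) and with GC offsets (0.0479). Il34, the second ligand of CSF1R, stood at a log2 fold change of 0.17 (adjusted p = 0.529). The 7 sheddases and membrane linkers, proteases that release CXCL16, VCAM1 and other membrane proteins and the ezrin family that ties ICAM1 to actin, were all tested and 0 passed (1 lower at an unadjusted p below 0.05, Adam10; 0 by DESeq2 and limma, 1 by voom). Adam10 had a log2 fold change of -0.14 (adjusted p = 0.309) and Msn one of 0.06 (adjusted p = 0.543).

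Of 15 NF-kappaB subunit and inhibitor genes tested, 2 rose and 0 fell, with a median log2 fold change of 0.08. At an unadjusted p below 0.05 there were 3 higher and 2 lower; DESeq2 and limma called 0 lower and voom 1. Nfkb2, the p100 subunit gene, stood at 87.2, 102 and 94.8 CPM in EGFP and 116, 126 and 132 CPM in Zac1, without overlap (log2 fold change 0.40, SE 0.07, adjusted p = 0.00339). Tnfaip3, the gene of the inhibitor A20, went from 123 ± 7.07 to 147 ± 8.51 CPM (SD, n = 3; 0.26, SE 0.06, adjusted p = 0.0246); this call was lost without any library but Zac1 4 (adjusted p up to 0.134).

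Of 17 inflammatory cytokine, receptor and adaptor genes tested, 0 rose and 1 fell (0 higher and 2 lower at an unadjusted p below 0.05; DESeq2 and voom each called 0 higher and 2 lower, Il6 and Tlr3, and limma 0 and 1, Il6). Tlr3, the gene of a receptor for double-stranded RNA, was at 78.8 ± 12.7 and 63.6 ± 0.944 CPM and missed the edgeR threshold (SD, n = 3; log2 fold change -0.31, edgeR adjusted p = 0.0855). The one that fell was Il6, the gene of interleukin-6, with 27, 29 and 25 reads in EGFP and 8, 7 and 15 in Zac1. Its log2 fold change was -1.63 (SE 0.32, edgeR adjusted p = 0.00953), lost without Zac1 5 (0.0698). Its direction was opposite to that of Icam1 and Cxcl2. Of genes named after their values were seen, Tnf, which with interleukin-1 drives this gene group in liver, had 1 read in each group, Il1a had 1 and 0, and Il1b had none. Of 9 genes of proteins that bind AU-rich or stem-loop elements of chemokine transcripts, all were tested and 0 passed (3 higher at an unadjusted p below 0.05; 0 by DESeq2 and limma, 1 by voom, Zfp36). Zfp36, which encodes tristetraprolin, was at 0.29 (adjusted p = 0.0966) and Zfp36l2 at 0.13 (adjusted p = 0.189).

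The 8 members whose mean count reached 100 were each compared with other genes for the most similar profile. Likeness was the root mean square difference between log2(CPM + 1) deviations from each gene's mean over the 6 libraries, among 9279 genes of that depth. Icam1 was closest to Phf19 (0.116) and Nuak1 (0.128), and Cxcl2 to Mapk4 (0.0691) and Foxo4 (0.0855). Cxcl16 was closest to Prkd2 (0.0845) and Atoh8 (0.106), and Ccl20 to Mfsd12 (0.0981) and Pdk4 (0.115). For Cxcl1 they were Plxna2 (0.0215) and Tbc1d16 (0.0261), for Ccl2 Ap2s1 (0.0183) and Taok3 (0.0215), for Vcam1 Parn (0.0286) and Firre (0.0297), and for Csf1 Pycr1 (0.0258) and Pnpla7 (0.0301). No member was among the 2 nearest genes of another; the nearest member was Cxcl2 for Icam1 and Icam1 for Cxcl2 (0.166).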

How the data were processed

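The authors deposited read counts per gene with 1 column for each library; the tools listed, per the submitters' processing notes, are FastQC, STAR, HTSeq and DESeq2. For the genome build, annotation and strand setting the entry is: not given in the sources used here. The file name says normalized, but the values are whole numbers with differing totals (14801240 to 18302538), and no whole number from 1 to 40 is absent in any library, so they were treated as unscaled counts. The depth limits low genes most.

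Symbols and coordinates came from GENCODE M21 (GRCm38) by Ensembl ID (49326 of 49585 matched). The 12130 genes whose mean count reached 10 were scaled by TMM and tested, two-sided, by the quasi-likelihood functions glmQLFit and glmQLFTest of edgeR 4.0.16 (prior count 0.125; R 4.3.3), Benjamini-Hochberg adjusted over all of them, threshold 0.05. SE is the log2 fold change over the square root of F; intervals use the t quantile. CPM are counts over TMM-scaled library totals, and likeness used log2(CPM + 1). The fit was tested on simulated data. Replicate pairs differed by more than sampling noise (chi-square per degree of freedom 2.29 to 8.83).

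The members and gene lists were chosen with earlier results of these data known. Named were the 10 members, Plagl1 and the 2 genes most like each deeper member. From each list came up to 4 genes past the test or else the 2 with the smallest p. Outside this rule are markers, genes beside the members, Tlr3, and list genes chosen after their values were seen. Those list genes are Ccl4, Cxcl10, Sele, Selp, Itgal, Csf1r, Csf2ra, Cxcr2, Tnf, Il1a and Il1b. Alternatives used DESeq2 1.42.0, limma 3.58.1 on log2(CPM + 1), voom, other scalings and filters, GC offsets (robust loess, span 0.5) and left-out libraries. Promoter windows came from RefSeq (GRCm38.p6).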

Additional observations from a re-analysis of the deposited data

How the results depend on the processing

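Over 16 alternatives, Icam1 and Cxcl2 kept their direction and passed each time, with log2 fold changes of 1.04 to 1.17 and 0.77 to 0.92. The number of members called higher was 5 with voom quality weights, and ranged from 2 to 4 when single libraries were left out. Members called lower were 1 (Vcam1) without EGFP 1 and Zac1 4, and 0 in the other 15. The number of changed genes over the whole table was 1297 with voom quality weights (61.4% of them higher, against 82.4%), 979 with no filter on low counts, 241 with a count minimum of 50, and 1461 without EGFP 1 and Zac1 4 (58.4% higher); it ranged from 206 to 963 with single libraries left out. The cause was not tested. Csf1, which was never called, changed sign in 3 alternatives: -0.012 without EGFP 1 and Zac1 4, -0.11 without EGFP 1 and -0.025 without Zac1 6; with single libraries left out it ranged from -0.11 to 0.15. Cxcl16 lost its call in 5 of 16, while Cxcl1 gained one in 5, Ccl20 in 3 and Vcam1 in 1; Cxcl5, Ccl2 and Ccl7 passed in none. No paired analysis was possible because the groups share no replicate numbers. With 3 libraries a group and mean counts of 65.7 to 148 for Ccl7, Cxcl5, Cxcl16, Ccl20 and Cxcl2, intervals are wide: that of Ccl7 holds folds from 0.867 to 1.49.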
